A study of Mus musculus with 20 samples.

Results

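Acute phase proteins are plasma proteins whose output by the liver changes during inflammation. The members described here are 10 genes of such proteins: the serum amyloid A genes Saa1, Saa2, Saa3 and Saa4, the orosomucoid genes Orm1, Orm2 and Orm3, haptoglobin (Hp), serum amyloid P (Apcs) and lipocalin 2 (Lcn2). They were chosen by name, as probe sets annotated with that symbol alone, and all 10 were found, with 12 probe sets, among 18193 genes measured. Messenger RNA was measured on Affymetrix expression arrays in 20 liver samples of male C57BL/6 mice, in 4 groups of 5. Every animal carried the conditional APCko genotype, an inducible deletion of Apc, a brake on Wnt and beta-catenin signalling, so no wild-type liver was compared. Mice received a single 0.75 mg intraperitoneal injection of tamoxifen at 6 weeks of age. From 1 week later they were kept for 9 months on standard chow or on a diet with 0.05% phenobarbital, a barbiturate that induces drug-metabolising enzymes through the receptor CAR and promotes liver tumours in mice. The groups were non-tumour liver of untreated mice (H2O_NT), non-tumour liver of phenobarbital-fed mice (PB_NT), carcinomas of untreated mice (APCko_Carcinoma) and adenomas of phenobarbital-fed mice (APCko_Adenoma).

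Several features limit these groups as a model. All carcinomas came from untreated mice and all adenomas from phenobarbital-fed mice, so tumour stage and diet cannot be told apart in any comparison of adenoma with carcinoma. The labels do not say whether a tumour and a non-tumour sample shared a mouse, nor whether each of the 5 samples in a group is a mouse of its own, so the p-values rest on sample-to-sample spread that may be partly technical. The promoter that drives the recombinase and the deleted exon are not given in the sources used here. The series' design text names an initiating dose of DEN where the sample protocols name tamoxifen, and the untreated group is called H2O while its protocol states chow. Neither point was settled.

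Hepatocytes make most acute phase proteins. Interleukin-6 and its relatives act through gp130 (Il6st) and STAT3, and interleukin-1 and tumour necrosis factor act through NF-kB, and C/EBP factors act on many of the same genes together with liver factors such as HNF4A. Saa1 and Saa2 encode apolipoproteins that replace others on high-density lipoprotein during inflammation, Saa3 is made largely by macrophages and adipocytes, and Saa4 is the constitutive form. Orosomucoids, also called alpha-1-acid glycoproteins, bind basic drugs and steroids in plasma. Haptoglobin captures free haemoglobin, serum amyloid P is a pentraxin that binds bacterial surfaces and amyloid, and lipocalin 2 withholds iron from bacteria by binding their siderophores and is also stored in neutrophil granules.

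The members lie in 2 clusters and 3 single places. In RefSeq's order on GRCm38.p6, chromosome 7 carries Saa3, Saa4, Saa1 and Saa2 in a row with only Gm31882 and the pseudogene Saa-ps between them, and chromosome 4 carries Orm1, Orm3 and Orm2 with only Gm11212 between. Hp is on chromosome 8, Apcs on chromosome 1 and Lcn2 on chromosome 2. The promoters of 4 members are shown. Saa1 and Saa2 are a pair whose measured levels followed each other, though their probe sets carry the same accession and may read the same transcript. Orm2 and Orm3 are a pair that moved in opposite directions in adenomas against phenobarbital liver. Each line gives the 250 bases before the start of the gene, 5′ to 3′ on the gene's strand, from RefSeq on GRCm38.p6. Capitals mark matches of the C/EBP motif TTNNGNAA on either strand. The windows are chr7:46742981-46743230 on the minus strand for Saa1, chr7:46751583-46751832 on the plus strand for Saa2, chr4:63362199-63362448 on the plus strand for Orm2 and chr4:63355908-63356157 on the plus strand for Orm3.
Saa1: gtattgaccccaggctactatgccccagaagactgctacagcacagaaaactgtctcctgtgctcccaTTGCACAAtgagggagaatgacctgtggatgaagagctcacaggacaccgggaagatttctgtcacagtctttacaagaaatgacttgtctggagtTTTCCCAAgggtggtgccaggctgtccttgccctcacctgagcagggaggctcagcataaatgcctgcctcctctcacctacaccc
Saa2: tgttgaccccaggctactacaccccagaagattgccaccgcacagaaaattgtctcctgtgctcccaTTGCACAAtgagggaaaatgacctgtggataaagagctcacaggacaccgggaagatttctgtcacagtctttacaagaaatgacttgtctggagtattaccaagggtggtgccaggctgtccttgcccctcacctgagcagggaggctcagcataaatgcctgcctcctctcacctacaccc
Orm2: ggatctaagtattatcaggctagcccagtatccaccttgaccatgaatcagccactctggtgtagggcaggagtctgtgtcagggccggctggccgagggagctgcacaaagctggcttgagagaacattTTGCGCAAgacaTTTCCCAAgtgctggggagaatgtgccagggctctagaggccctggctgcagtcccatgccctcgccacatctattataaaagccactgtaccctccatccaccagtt
Orm3: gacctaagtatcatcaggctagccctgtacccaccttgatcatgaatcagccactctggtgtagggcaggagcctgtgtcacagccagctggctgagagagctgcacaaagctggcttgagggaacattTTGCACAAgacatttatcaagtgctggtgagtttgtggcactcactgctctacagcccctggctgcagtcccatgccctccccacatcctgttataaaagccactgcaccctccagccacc

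The Saa1 and Saa2 windows were identical at 238 of 251 aligned columns (94.8%), and those of Orm2 and Orm3 at 218 of 255 (85.5%). Every other pair among the 8 members with an entry lay between 40.9% and 51.6%. Orm1 and Hp had no entry in the promoter table. Orm2 and Saa1 each held 2 C/EBP matches, at positions -120 to -113 and -108 to -101 from the start in Orm2 and at -182 to -175 and -86 to -79 in Saa1. Orm3 and Saa2 held 1 each, at the place of the more distal match of their partner, at -121 to -114 and -183 to -176. Saa3 held 4 matches, Saa4 held 2, Lcn2 held 1 and Apcs held 0. The motif was thus found in 7 of the 8 windows, against 36.8% of 32851 promoters of the same length. The Saa1 and Saa2 windows, and those of Orm2 and Orm3, are closely alike and share a match. The 8 windows are therefore not independent, and the count is a description. Apcs was the only member with the STAT motif TTCNNNGAA (7.02% of all promoters) and with the interleukin-6 response element CTGGGAA (9.1%, present at 2 places). The NF-kB motif, GGGAN followed by TTTCC, was in 0 of the 8 windows and in 0.356% of all promoters. These are letter matches on either strand in short windows and are no evidence of binding.

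The deposited values are log2 intensities from RMA, a method that corrects background, aligns the arrays' distributions and summarises the probes of a gene, so each array's overall level is set alike (array medians 5.52 to 5.63). Differences below are in log2 units, with their standard error (SE), and a gene is said to have risen or fallen where limma's moderated test gave a Benjamini-Hochberg adjusted p under 0.05 over all 18193 genes. Values ran from 2.67 to 15.09, and the brightest probe set of an array lay between 14.63 and 15.09. Levels of different genes come from different probes and are not set against each other. Several members had levels below 5.78 in carcinomas, and differences against such levels may understate the change. That mark is the highest level of 6 neutrophil granule genes on the 20 arrays, and levels under it are called near the floor. It is not a measured limit of detection, and the array medians lie just under it. Groups below it could still differ without overlap, as adenomas and carcinomas did in Orm3. Apc itself, measured by a probe set whose place relative to the deleted part is not known here, lay between 8.64 and 8.97 in untreated liver, 8.43 and 8.71 in phenobarbital liver, 10.53 and 10.97 in carcinomas and 8.79 and 9.25 in adenomas, so it gives no check of the deletion. The 11 measured hepatocyte markers included albumin (Alb), Hnf4a and Cps1. Their median per array was 13.81 to 14.21 in the non-tumour groups and 13.13 to 13.67 in adenomas. In carcinomas that median was 7.06 to 9.85, and arrays 2 (7.06) and 5 (8.88) stood lowest. In adenomas against phenobarbital liver 0 of the 11 rose and 1 fell, where 13.4% of all genes rose and 11.2% fell. That gene was Cps1, which fell by 4.12 (SE 0.93, adjusted p = 0.00289). The summed linear level of the list was 137000 to 155000 in adenomas and 168000 to 176000 in phenobarbital liver.

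In carcinomas 9 of the 10 genes fell against untreated liver, by 1.60 to 5.99, and lipocalin 2 alone did not pass. Of all genes 37.6% fell and 31.4% rose in that comparison. The median difference was -3.50 over the members and -0.12 over all genes. For 8 of the 10 members every carcinoma array lay below every untreated one, as it did for 27.8% of all genes.

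In adenomas lipocalin 2 and Orm2 rose against phenobarbital liver, Orm3 and Saa4 fell, and the other 6 did not pass. Of all genes 13.4% rose and 11.2% fell, so a count of 2 in each direction is near the background. Phenobarbital in non-tumour liver raised Orm3 alone among the members, against 0.192% of all genes higher and 0.022% lower. Adenomas were higher than carcinomas in 9 of the 10 members, against 33.6% of all genes higher and 28.5% lower. Groups without overlap were found there for 7 members and 21.8% of all genes. The comparisons share control groups: untreated liver is the baseline of both the phenobarbital and the carcinoma comparison.

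**Figure D1:**
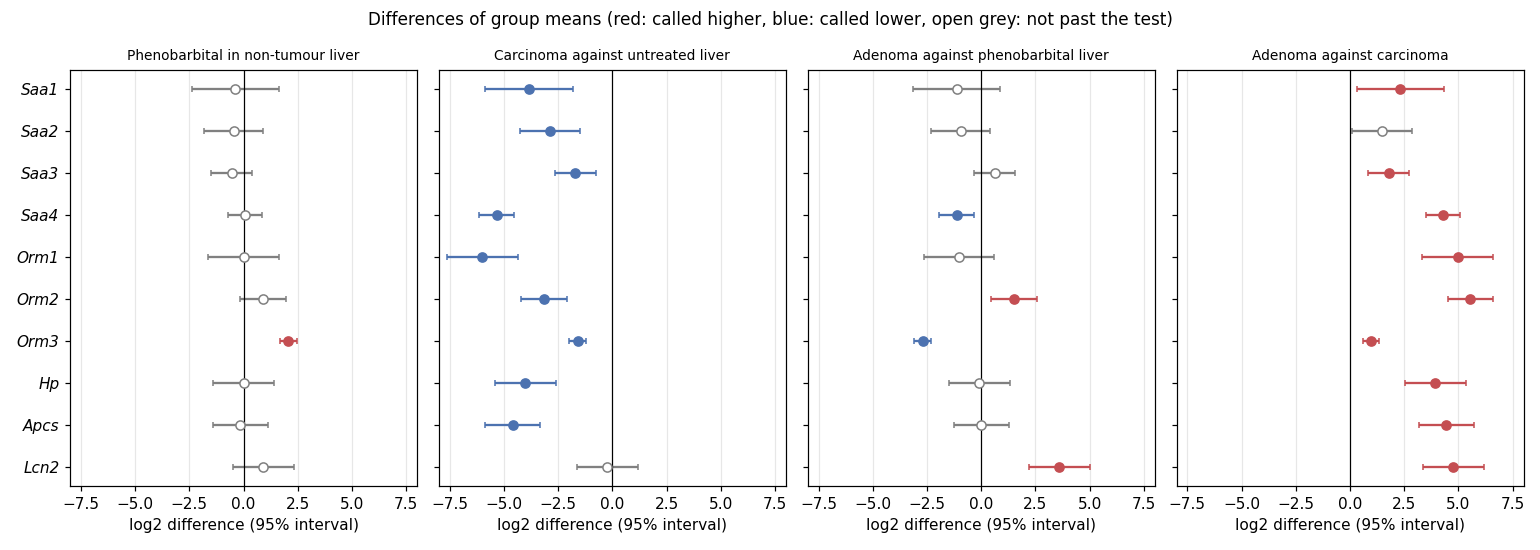
Log2 difference of each acute phase gene (rows) in 4 comparisons (panels), with 95% confidence intervals from limma on 5 arrays per group. Red points were higher and blue points lower at an adjusted p under 0.05 over all genes, and open grey points did not pass. Orm3 is the only coloured point for phenobarbital, 9 of 10 genes are blue for carcinoma, and Lcn2 stands at 3.60 for adenoma against phenobarbital liver.

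Saa1 was read from a probe set that binds more than 1 transcript, and the accession behind it is that of Saa2 in RefSeq, which lists each of the pair as a synonym of the other. The Saa2 probe set, which ends in _x_at, carries that same accession, so both may largely read the same transcript. The 2 genes therefore cannot be told apart with certainty here, and in the counts of members they are not independent. In untreated liver Saa1 measured 9.83, 10.92, 11.48, 11.53 and 10.35 on arrays 1 to 5, and in phenobarbital liver 10.06, 10.61, 11.77, 9.32 and 10.44. These groups overlap. Carcinomas measured 8.74, 3.28, 8.31, 9.38 and 5.19, all below untreated liver, with arrays 2 and 5 far below the other 3. Adenomas measured 9.12, 7.41, 11.34, 7.95 and 10.67, 2 inside the range of phenobarbital liver and 3 below it. Saa1 fell in carcinomas by 3.84 (SE 0.96, adjusted p = 0.00162), or by 2.92 without carcinoma array 2 and 4.44 without array 4, and in adenomas the difference from phenobarbital liver was -1.14 (95% interval -3.15 to 0.88, adjusted p = 0.436).

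Saa2, the partner of Saa1 with the near-identical promoter printed above, was lowest in carcinomas as well. Its means were 9.00 ± 0.81 (SD, n = 5) in untreated liver, 8.54 ± 0.88 in phenobarbital liver, 6.11 ± 1.27 in carcinomas and 7.59 ± 1.45 in adenomas. It fell in carcinomas by 2.89 (SE 0.66, adjusted p = 0.000695). In adenomas the difference from phenobarbital liver was -0.95 (95% interval -2.32 to 0.43, adjusted p = 0.327). Adenoma arrays 3 and 5 were the highest for both genes, at 9.42 and 8.74 for Saa2, and adenoma array 2 was the lowest, at 5.96. Against carcinomas, adenomas were higher in Saa1 by 2.32 (adjusted p = 0.0428) and in Saa2 by 1.48, which did not pass (adjusted p = 0.057). The Saa1 call was lost without carcinoma array 2 or 5 or adenoma array 1, 3 or 5 (differences 1.40 to 2.36, adjusted p 0.0593 to 0.149), and without both carcinoma arrays the difference was 0.49 (adjusted p = 0.586). Saa2 passed without carcinoma array 3 or 4 or adenoma array 2 or 4 (differences 1.65 to 1.89, adjusted p 0.0184 to 0.0492). The second Saa1 probe set, whose accession is that of Saa1 in RefSeq, gave -3.76 in carcinomas (SE 0.91, adjusted p = 0.00133 over all probe sets) and 1.93 for adenomas against carcinomas (adjusted p = 0.0777).

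Saa3, the serum amyloid A of macrophages and fat, measured 7.65, 9.10, 8.36, 8.79 and 8.32 in untreated liver and 7.72, 7.76, 8.61, 7.56 and 7.82 in phenobarbital liver. Carcinomas measured 8.04, 5.47, 7.50, 6.40 and 6.24, so carcinoma array 1 reached into the untreated range. Saa3 fell in carcinomas by 1.72 (SE 0.45, adjusted p = 0.0023), the smallest fall among the 4 serum amyloid A genes. Adenomas measured 7.37, 8.34, 9.60, 7.96 and 9.28, and their mean of 8.51 ± 0.92 stood 0.62 above phenobarbital liver (95% interval -0.32 to 1.56, adjusted p = 0.352). The effect of adenoma exceeded that of carcinoma by 2.33 (SE 0.63, adjusted p = 0.005).

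Saa4, the constitutive form, did not overlap between carcinomas and untreated liver. It measured 12.45, 12.58, 11.76, 11.42 and 12.24 in untreated liver and 12.14, 12.20, 12.11, 12.28 and 12.06 in phenobarbital liver. Carcinomas measured 8.11, 5.55, 6.79, 7.74 and 5.55, a fall of 5.34 (SE 0.38, adjusted p = 2.43e-10). The nearest carcinoma and untreated arrays were 3.31 apart. Adenomas measured 10.97, 11.28, 10.83, 10.76 and 11.35, all below every phenobarbital liver, a fall of 1.12 (SE 0.38, adjusted p = 0.039). In the fit of all 4 groups that call was narrow. It was lost on leaving out any 1 phenobarbital array (adjusted p 0.0615 to 0.0728) or adenoma array 1, 3 or 4 (0.0646 to 0.0772). That fit shares its spread with the carcinomas (SD 1.20), while phenobarbital liver had an SD of 0.09 and adenomas 0.26. With only the 2 compared groups in limma's fit the adjusted p was 8.06e-05, and without carcinoma arrays 2 and 5 it was 0.00174. A second Saa4 probe set gave -1.33 (SE 0.21, adjusted p = 0.00017 over all probe sets).

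**Figure D2:**
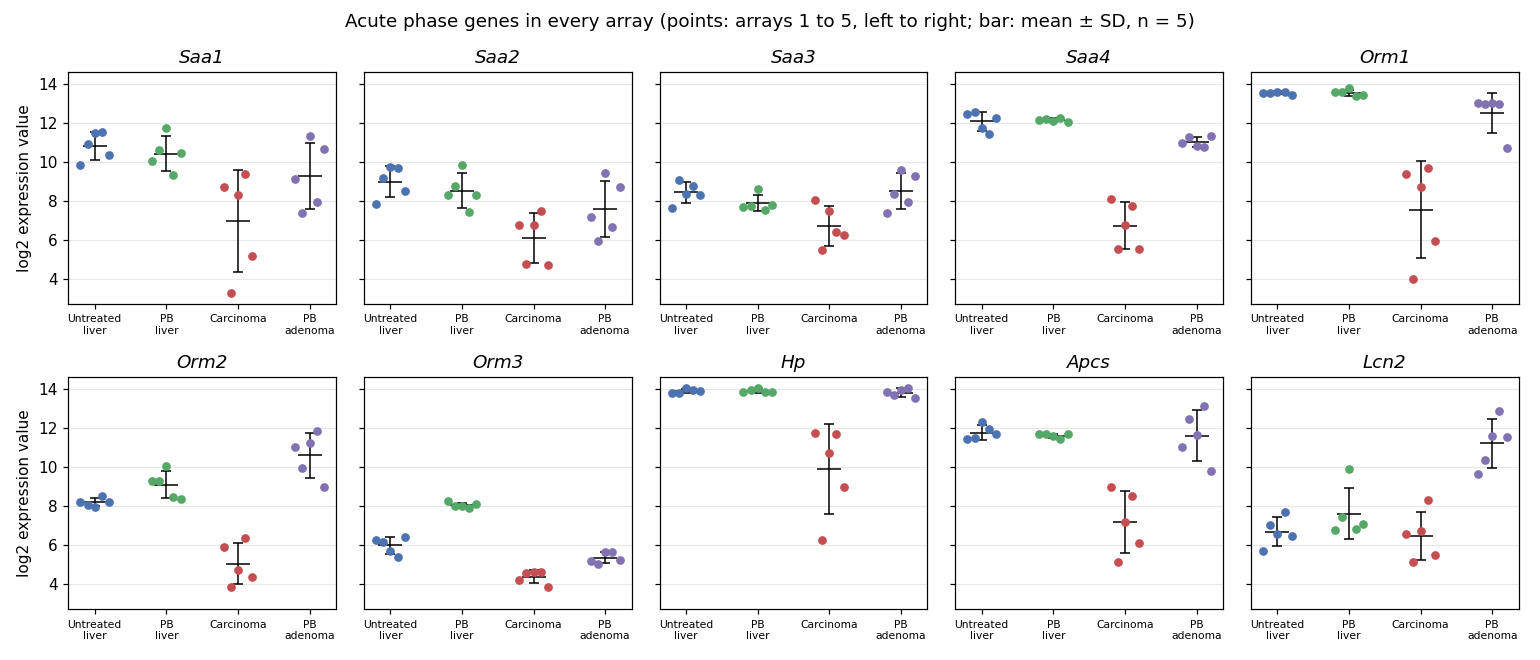
Log2 RMA value of each acute phase gene (panels) in the 20 arrays, grouped as untreated liver, phenobarbital liver, carcinoma and adenoma, with bars for the mean ± SD (n = 5). The carcinoma points of Orm1, Hp, Saa4 and Apcs lie below all other groups and spread widely, Orm3 is highest in phenobarbital liver (7.90 to 8.25), and Lcn2 is highest in adenomas (9.65 to 12.91).

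The 3 orosomucoid genes, neighbours on chromosome 4, all fell in carcinomas. In adenomas against phenobarbital liver Orm2 and Orm3 passed in opposite directions, and under phenobarbital Orm3 alone passed. Against carcinomas, adenomas were higher in both, in Orm3 by 0.97 (SE 0.18, adjusted p = 0.000143) with both groups near the floor. Orm1 measured 13.56, 13.55, 13.60, 13.61 and 13.44 in untreated liver and 13.61, 13.57, 13.78, 13.37 and 13.44 in phenobarbital liver. These groups overlap, and the 95% interval of their difference was -1.63 to 1.63 (adjusted p = 1.0). Its width reflects the carcinoma spread (SD 2.48), which the fit shares, since the liver SDs were 0.07 and 0.16. Carcinomas measured 9.41, 4.0, 8.74, 9.70 and 5.96, a fall of 5.99 (SE 0.78, adjusted p = 1.21e-06). Without carcinoma array 2 the difference was -5.10, and without arrays 2 and 5 it was -4.27 (adjusted p = 2.46e-07 and 3.03e-08). Adenomas measured 13.00, 12.95, 13.02, 12.97 and 10.70. All 5 were below every phenobarbital liver, 4 of them by little and array 5 far below, and the difference of -1.03 did not pass (95% interval -2.65 to 0.60, adjusted p = 0.376). Of all genes, 8.99% were lower without overlap in this comparison. With carcinoma arrays 2 and 5 left out of the fit, the same difference passed (adjusted p = 0.0331).

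Orm2 measured 8.24, 8.08, 7.97, 8.54 and 8.24 in untreated liver and 9.29, 9.28, 10.07, 8.50 and 8.38 in phenobarbital liver. Of the phenobarbital arrays 3 were above every untreated one and the other two lay inside the untreated range, and the difference of 0.89 did not pass (95% interval -0.15 to 1.94, adjusted p = 0.915). With only these 2 groups in the fit its adjusted p was 0.153. Adenomas measured 11.05, 9.94, 11.26, 11.85 and 8.99, a rise of 1.51 over phenobarbital liver (SE 0.50, adjusted p = 0.0322) with adenoma arrays 2 and 5 inside the phenobarbital range and the other 3 above it. That call was lost without phenobarbital array 4 or 5 or adenoma array 1, 3 or 4 (differences 1.21 to 1.41, adjusted p 0.0675 to 0.0909). Carcinomas measured 5.94, 3.86, 4.74, 6.39 and 4.39, and Orm2 fell by 3.15 (SE 0.50, adjusted p = 1.57e-05). Adenomas exceeded carcinomas in Orm2 by 5.55 (SE 0.50, adjusted p = 8.04e-09), with no overlap. Of the 5 carcinoma levels 3 are below 5.78, near the floor, so this may understate the difference.

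Orm3 was the only member that passed in the phenobarbital comparison. It measured 6.28, 6.16, 5.71, 5.42 and 6.42 in untreated liver and 8.25, 8.04, 8.0, 7.90 and 8.12 in phenobarbital liver, a rise of 2.07 (SE 0.18, adjusted p = 3.41e-06). The groups were 1.48 apart at their nearest arrays, and 2.39% of all genes were higher without overlap in this comparison. Adenomas, from mice on the same diet, measured 5.20, 5.06, 5.64, 5.67 and 5.27, a fall of 2.69 against phenobarbital liver (SE 0.18, adjusted p = 5.31e-09). Carcinomas measured 4.25, 4.60, 4.62, 4.65 and 3.89, a fall of 1.60 (SE 0.18, adjusted p = 2.52e-07). By level the groups ran phenobarbital liver, untreated liver, adenoma and carcinoma, and only the untreated and adenoma ranges overlapped, a pair whose difference was not tested. Both tumour groups lie near the floor, and the fall in carcinomas starts from a lower level than the fall in adenomas, so the sizes of the falls cannot be set against each other. In adenomas Orm2 was thus up by 1.51 and Orm3 down by 2.69, both against phenobarbital liver, where Orm3 itself was raised. The promoter windows of the pair are 85.5% identical. Any part of the promoters in these differences was not tested.

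Haptoglobin lay near the brightest probe sets of the arrays in every group but carcinomas. It measured 13.82, 13.83, 14.05, 13.95 and 13.92 in untreated liver, 13.85, 13.96, 14.08, 13.84 and 13.88 in phenobarbital liver and 13.86, 13.69, 13.95, 14.08 and 13.53 in adenomas. The SDs of these 3 groups were 0.09, 0.10 and 0.22, in that order. The adenoma difference from phenobarbital liver was -0.10 (95% interval -1.51 to 1.31, adjusted p = 0.936). That interval is wide because the fit shares 1 spread with the carcinomas (SD 2.31). With only the 2 compared groups in limma's fit the adjusted p was 0.572. Carcinomas measured 11.77, 6.28, 10.75, 11.70 and 8.98, a fall of 4.02 (SE 0.67, adjusted p = 2.97e-05), with arrays 2 and 5 again lowest. Without array 2 the difference was -3.12 (adjusted p = 4.81e-07).

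Serum amyloid P followed the same course in carcinomas, with values of 8.97, 5.13, 7.20, 8.51 and 6.14 against 11.44, 11.50, 12.33, 11.94 and 11.70 in untreated liver, a fall of 4.59 (SE 0.61, adjusted p = 1.49e-06). Phenobarbital liver was tight at 11.62 ± 0.11 (SD, n = 5). Adenomas had nearly the same mean of 11.63 but an SD of 1.28, with values of 11.04, 12.46, 11.68, 13.14 and 9.82. Adenoma arrays 2 and 4 were above, and arrays 1 and 5 below, every phenobarbital liver.

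Lipocalin 2 was the member that did not pass in carcinomas and rose most in adenomas. It measured 5.71, 7.03, 6.57, 7.73 and 6.48 in untreated liver and 6.58, 5.16, 6.74, 8.32 and 5.52 in carcinomas. The difference was -0.24 (95% interval -1.64 to 1.16, adjusted p = 0.76). Untreated liver was already dim, and carcinoma arrays 2 and 5 lay below 5.78, near the floor, so a large fall could have been missed. Without those 2 arrays the difference was 0.51 (adjusted p = 0.547). Phenobarbital liver measured 6.78, 7.47, 9.90, 6.85 and 7.10, with array 3 far above the others. Adenomas measured 9.65, 10.37, 11.62, 12.91 and 11.56, a rise of 3.60 (SE 0.67, adjusted p = 0.000564), or 12.1-fold. The overlap is 1 pair of arrays: phenobarbital array 3 exceeds adenoma array 1 by 0.25. Over the alternatives tried, this difference stayed between 3.18 and 4.17 and passed in each. Against carcinomas, adenomas were higher by 4.76 (SE 0.67, adjusted p = 4.11e-06) with no overlap.

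Neutrophils store lipocalin 2, so their markers were set beside it. Of 10 measured neutrophil markers 0 passed limma's test in adenomas against phenobarbital liver, and 2 (S100a8 and Ngp) had an unadjusted p under 0.05. The granule genes Ngp, Camp, Ltf, Mpo, Elane and Mmp8 were dim, between 3.88 and 5.78 on all 20 arrays. Their highest value is the mark used here for levels near the floor. S100a8 and S100a9, the most abundant proteins of neutrophil cytosol, differed by 1.34 (adjusted p = 0.0699) and 1.28 (adjusted p = 0.172). The summed linear level of the list was 452 to 599 in phenobarbital liver and 436 to 1860 in adenomas, highest on adenoma array 3, while lipocalin 2 was highest on adenoma array 4 (list sum 721). Of 12 macrophage and Kupffer cell markers 2 rose and 5 fell in adenomas, where 13.4% of all genes rose and 11.2% fell. Cd68 rose by 1.66 (adjusted p = 0.00486), while the resident macrophage genes Cd163 and Timd4 fell by 2.87 (1.3e-06) and 2.36 (2.19e-07). The list sum was 3670 to 12200 against 7400 to 9760. The part of any of these cells in the lipocalin 2 result was not tested.

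The adipocyte list bears on Saa3. Of its 6 measured genes 1 rose and 1 fell in adenomas, where 13.4% of all genes rose and 11.2% fell. The riser was Fabp4 (1.59, adjusted p = 0.0361), which macrophages and endothelium also express, and Retn fell by 0.52 (adjusted p = 0.00231). The list sum was 1770 to 3160 in adenomas against 911 to 1410 in phenobarbital liver, while the list median per array was lower, at 5.59 to 6.34 against 6.37 to 6.67. The adipocyte hormone genes Adipoq and Lep lay between 3.21 and 4.68 on every array, near the floor. Of the 6 measured bile duct markers 2 rose and 1 fell in carcinomas, where 31.4% of all genes rose and 37.6% fell. The risers were the keratin gene Krt7 (5.23) and Epcam (2.08). In adenomas 0 of the 6 passed limma's test, with 0 at an unadjusted p under 0.05. In carcinomas all 11 hepatocyte markers fell, with a median of -4.26 against -3.50 for the acute phase genes, and their summed level was 48700, 2100, 33300, 42500 and 13400 on carcinoma arrays 1 to 5. The array with the lowest sum, array 2, was also lowest for 8 of the 10 acute phase genes. In bulk tissue fewer hepatocytes and less RNA per hepatocyte cannot be told apart, and the part of hepatocyte content in the carcinoma falls was not tested. Without carcinoma arrays 2 and 5 the 9 falls were smaller, from 1.13 (Saa3) to 4.54 (Saa4), and all 9 still passed.

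**Figure D3:**
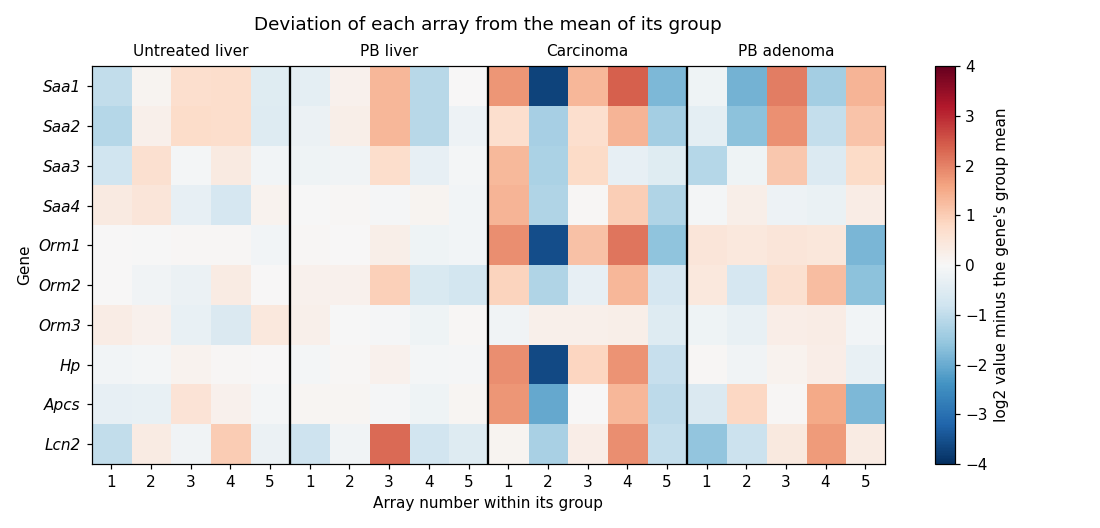
Deviation of each acute phase gene (rows) from its group mean on every array (columns), in log2 units, by colour. Carcinoma array 2 is the lowest carcinoma for 8 of 10 genes, phenobarbital array 3 is the highest of its group for 7, and phenobarbital array 4 is the lowest for 7.

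Within groups the median SD of the members was 0.45 in untreated liver, 0.29 in phenobarbital liver, 1.25 in carcinomas and 1.08 in adenomas, against 0.17, 0.14, 0.21 and 0.23 over all genes. Several members shared their extreme arrays. Phenobarbital array 3 was highest of its group for Saa1, Saa2, Saa3, Orm1, Orm2, Hp and Lcn2, and array 4 was lowest for 7 members. Among adenomas the genes split: array 3 was highest for Saa1, Saa2, Saa3 and Orm1, array 4 for Orm2, Orm3, Hp, Apcs and Lcn2, and array 5 was lowest for Orm1, Orm2, Hp and Apcs while highest for Saa4.

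The tumour effects themselves differed for 8 members. The adenoma effect exceeded the carcinoma effect for 7 of 10, against 23.3% of all genes, and was below it for Orm3, at -1.10 (adjusted p = 0.0018), against 23.3%; the Orm3 value is not a measure of size, since its carcinoma levels are near the floor. The differences were 4.97 for Orm1 (SE 1.10, adjusted p = 0.000936), 4.66 for Orm2 (adjusted p = 1.76e-05), 4.60 for Apcs (adjusted p = 0.000172), 4.22 for Saa4 (adjusted p = 2.42e-06), 3.92 for Hp (adjusted p = 0.00208) and 3.84 for Lcn2 (adjusted p = 0.0024). Without carcinoma array 2 the values of Orm1 and Hp were 4.08 (adjusted p = 0.000287) and 3.02 (6.58e-05). Saa1 (2.71, adjusted p = 0.112) and Saa2 (1.94, adjusted p = 0.0942) did not pass. Without carcinoma array 4 both did (adjusted p = 0.0467 and 0.0498), as did Saa2 without adenoma array 2 (0.0395). Because each tumour type comes from its own diet, this difference carries the diet as well.

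Other genes of the acute phase were set beside the members. Of 20 further positive acute phase genes 16 fell and 2 rose in carcinomas, with a median of -3.54. Of all genes 37.6% fell and 31.4% rose there. C-reactive protein (Crp) fell by 6.46 (SE 0.51, adjusted p = 8.7e-10) and hepcidin (Hamp), the iron hormone, by 8.17 (SE 0.77, adjusted p = 1.3e-08), while the metal-binding Mt2 rose by 2.14 (SE 0.30, adjusted p = 2.94e-06). In adenomas 1 of the 20 rose and 2 fell, where 13.4% of all genes rose and 11.2% fell. The endotoxin co-receptor Cd14 rose by 1.87 (SE 0.39, adjusted p = 0.00161), and Hamp and Crp fell by 5.18 and 1.67. The 8 negative acute phase genes, plasma proteins whose output drops in inflammation, all fell in carcinomas, led by corticosteroid-binding globulin (Serpina6, -5.56) and Itih1 (-5.42). In adenomas 1 of the 8 fell, near the 11.2% of all genes. That gene was Itih1, at -1.67 (adjusted p = 0.0037).

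The cytokines that drive these genes were dim. Of 10 cytokine ligands 2 rose and 2 fell in carcinomas, where 31.4% of all genes rose and 37.6% fell. In adenomas 1 rose and 2 fell, against 13.4% and 11.2% of all genes. Apart from Ctf1 they lay between 3.32 and 7.75 on every array. Il6 differed by 0.16 (adjusted p = 0.794) in adenomas and 0.64 (adjusted p = 0.117) in carcinomas. Its carcinoma levels were uneven, from 3.58 to 6.22 (mean 4.19, SD 1.14), against 3.34 to 3.71 in untreated liver. Clcf1, a gp130 cytokine, rose by 1.68 in adenomas (SE 0.30, adjusted p = 0.00036). Its mean was also higher in carcinomas (5.50) than in untreated liver (4.21). Among 10 receptors, the interleukin-1 receptor Il1r1 rose by 1.83 in adenomas (SE 0.23, adjusted p = 1.03e-05) and Il22ra1 by 0.70, while the accessory chain Il1rap fell by 1.57 there and by 6.22 in carcinomas. Osmr rose by 1.96 in carcinomas (SE 0.34, adjusted p = 4.62e-05).

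Among 13 transcription factors and kinases, Cebpa fell by 4.42 and Hnf4a by 3.87 in carcinomas, while Cebpd rose by 1.67 and Jak2 by 1.29. In adenomas Cebpa fell by 1.09 (SE 0.24, adjusted p = 0.00248) and Relb rose by 1.23 (SE 0.23, adjusted p = 0.000604). The Relb mean was also higher in carcinomas (6.69) than in untreated liver (5.75). Hnf4a in adenomas, at 12.64 ± 0.15 (SD, n = 5), stayed near phenobarbital liver at 12.60 ± 0.05. Of 10 feedback inhibitors 3 rose and 4 fell in carcinomas, near the 31.4% and 37.6% of all genes. Socs3 was up by 1.66 and Zfp36 down by 1.82. In adenomas 3 rose and 1 fell, against 13.4% and 11.2% of all genes, with Tnfaip3 up by 1.13 (SE 0.24, adjusted p = 0.00166). Tnfaip3 also rose in carcinomas, by 0.98 (SE 0.24, adjusted p = 0.00124). Under phenobarbital only Socs2 passed among all these lists, and it fell by 1.91 (SE 0.39, adjusted p = 0.049). Of all genes 0.192% rose and 0.022% fell there. The lists were chosen with earlier results of these data known, so their counts are a description.

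**Figure D4:**
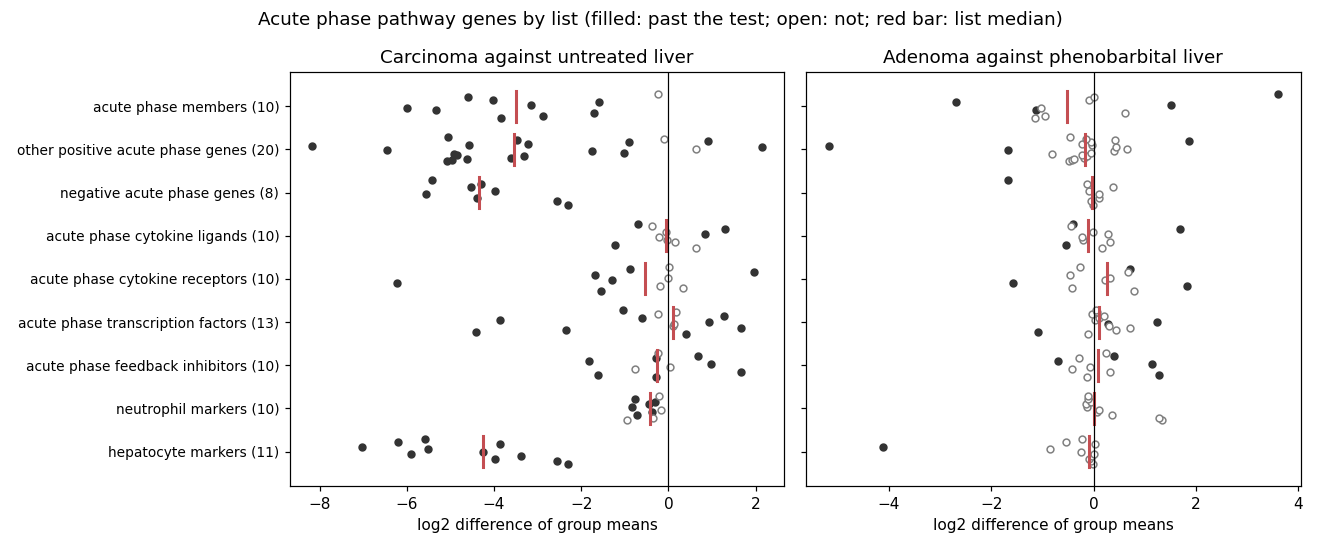
Log2 difference of group means of every measured gene (points) in each list (rows) for carcinoma against untreated liver and adenoma against phenobarbital liver (panels). Filled points passed the test, open ones did not, and the red bar is the list median. The 8 negative acute phase genes all fell in carcinomas and 1 of 8 fell in adenomas. Of 20 other positive genes 16 fell in carcinomas and 2 in adenomas. Of all genes 37.6% fell in carcinomas and 11.2% in adenomas.

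For each member the gene with the most similar pattern was found by the root mean square difference of mean-centred log2 values over the 20 arrays, a description in which both genes share every array. The closest pair was Hp with hemopexin (Hpx), at 0.25. Saa4 was nearest to Kmo (0.35), Orm1 to Fbp1 (0.40), Orm3 to Gpx6 (0.51), Apcs to Ahsg (0.57), Saa3 to Icam2 (0.59), Orm2 to Tm4sf4 (0.76), Saa2 to Fam25c (0.87), Lcn2 to Phlda2 (1.01) and Saa1 to Hpx (1.02). Phlda2 averaged 8.24 in adenomas and 4.44 to 4.92 elsewhere.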

How the data were processed

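The data are 20 Affymetrix arrays of mouse liver tissue. RNA was extracted with Trizol from snap-frozen tissue and labelled with the 3'IVT Express kit, per the labels' protocols. The values the authors deposited are on a log2 scale, and RMA, with no version given, is the method in the submitters' processing notes. The table held 45037 probe sets, of which 34945 carried 1 gene symbol, 932 several and 9160 none, per the platform annotation, and 34741 of the single symbols matched RefSeq's GRCm38.p6 table by Entrez number. Only probe sets with 1 symbol were used to name genes. Each gene was read from its brightest probe set over all arrays, after those ending in _x_at were dropped where another existed, for 18193 genes in all; 9010 of these had more than 1 probe set. RMA makes the arrays' distributions alike, so a shift of all genes would be removed, and differences of dim genes shrink.

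Groups and array numbers came from the sample titles. A single limma 3.58.1 fit (R 4.3.3) held all 4 groups, with 16 residual and 3.22 prior degrees of freedom. The groups share 1 estimate of the spread of a gene. Where carcinomas spread widely, this widens the intervals of comparisons without carcinomas too. Tests were two-sided, with Benjamini-Hochberg adjustment over all 18193 genes, a threshold of 0.05 and 95% intervals. The comparisons were phenobarbital against untreated non-tumour liver, each tumour type against the non-tumour group its labels name, adenoma against carcinoma, and the difference of the tumour effects. The fit was tested on simulated data with the same spread in every group, which does not cover the wider spread of carcinomas. Summed marker levels are sums of linear values. Promoter windows came from RefSeq, were searched on both strands with Python 3.11.15, and were aligned end to end with Biopython 1.88 (match 2, mismatch -1, gap opening -5, gap extension -0.5).

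The members and lists were chosen with earlier results of these data known. All 10 members are named. For each other list and comparison the rule considers called genes among groups without overlap. It takes up to 2 with the largest rise and 2 with the largest fall. For pattern likeness it takes the gene outside the 10 members that is nearest to each member. Not all of them are printed. Genes with values here that the rule does not take are Apc, Il6, S100a9, Camp, Ltf, Elane, Mmp8, Adipoq and Lep. The same holds for Epcam, Clcf1 and Relb in carcinomas against untreated liver, and for S100a8 and Ngp in adenomas against phenobarbital liver. All were chosen after their values were seen. Replicate numbers were not used to pair the samples in the main fit. Same-numbered arrays of compared groups had deviations correlated between -0.11 and 0.07, which cannot show whether samples shared a mouse. With arrays there is no sequencing depth, and precision is limited by the 5 arrays per group. Alternatives covered scaling, probe set choice, dim genes, array weights, the variance model, the groups in the fit, the replicate block and each array left out.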

Additional observations from a re-analysis of the deposited data

Results flagged for a closer look

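In 3 of the 40 combinations of member and group, 1 array stood apart from the other 4 by more than Dixon's 95% criterion, a gap of 0.71 of the group's range, which chance gives in about 1 of 20 such groups. Saa3 measured 8.61 on phenobarbital array 3, with a gap of 0.747 of the range. Lcn2 measured 9.9 on the same array, with a gap of 0.777. Orm1 measured 10.7 on adenoma array 5, with a gap of 0.969, while the other 4 adenomas lay between 12.95 and 13.02.

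The adenoma effect differed from the carcinoma effect for 8 members in limma's interaction test. It was higher for Orm1 by 4.97 (adjusted p = 0.000936), Orm2 by 4.66 (1.76e-05), Apcs by 4.60 (0.000172), Saa4 by 4.22 (2.42e-06), Hp by 3.92 (0.00208), Lcn2 by 3.84 (0.0024) and Saa3 by 2.33 (0.005). For Orm3 it was lower, at -1.10 (adjusted p = 0.0018), a value limited by carcinoma levels near the floor. In these 8 tests diet and tumour stage cannot be told apart.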

How the results depend on the processing

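Over 1540 values of the members under all alternatives, 1475 kept direction and side of the threshold, 23 lost a call, 14 gained one and 28 changed sign. The sign changes fell in 8 results without a call in either fit, with sizes up to 0.51. Of 31 called results 28 kept the call in every alternative, the exceptions being Saa4 and Orm2 in adenomas against phenobarbital liver and Saa1 in adenomas against carcinomas. Saa1 also lost its call with the mean of its probe sets (2.13, adjusted p = 0.0572) and with only the compared groups in the fit (0.129). Over its alternatives its adjusted p ran from 0.00607 to 0.586. Saa2 in adenomas against carcinomas passed with arrays centred (1.56, adjusted p = 0.042), quantile normalization (1.58, 0.0359) and array weights (2.21, 0.0158), within a range of 0.0158 to 0.475. With array weights the difference of tumour effects passed for Saa1 (3.88, 0.011) and Saa2 (2.69, 0.0161).

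With the replicate block the count of members lower in adenomas against phenobarbital liver was 1 in place of 2, since Saa4 had an adjusted p of 0.0546, and Saa2 in adenomas against carcinomas passed (0.0404). Leaving out each array in turn gave 1 to 2 members higher and 1 to 2 lower in adenomas against phenobarbital liver, 8 to 10 higher in adenomas against carcinomas, 7 to 9 higher in the difference of tumour effects, and 9 lower in carcinomas throughout. Leaving out carcinoma arrays 2 and 5 was chosen after seeing the data and gave 9 lower in carcinomas, 3 lower in adenomas against phenobarbital liver and 8 higher in adenomas against carcinomas. Without untreated arrays 3 and 4 the last count was also 8. The 5 arrays per group and levels near the floor in carcinomas limit what can be seen.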
